A study of Mus musculus with 42 samples.

Results

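The nuclear-encoded genes of the mitochondrial respiratory chain were followed through 4 hypothalamic nuclei of fed and fasted mice. They were chosen by symbol as the protein-coding genes that begin with Nduf, Uqcr or Cox4 to Cox8, together with Sdha, Sdhb, Sdhc, Sdhd and Cycs, and 77 of the 37907 gene identifiers in the table met this rule. A further 7 identifiers with such symbols are annotated as pseudogenes and were left out. All mice were adult wild-type males on the C57/BL6 strain, and none carried a transgene or a deletion. They were either fed ad libitum (Fed) or kept without food for 24 hours (Fast) before the brain was taken. The arcuate nucleus (ARC), ventromedial hypothalamus (VMH), dorsomedial hypothalamus (DMH) and paraventricular nucleus (PVN) were cut out of cryosections by laser-capture microdissection, and the RNA was amplified before sequencing. The 42 libraries were 5 fed and 5 fasted from the ARC, 6 and 6 from the VMH, 5 and 4 from the DMH, and 6 and 5 from the PVN.

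Expression is given as RPKM, reads scaled to transcript length and to sequencing depth, so that levels of different genes can be compared per length. The reads counted to genes, estimated from the smallest steps of the values, were 4.57 M on average and 1.33 to 13.2 M among libraries, which is not the number of reads sequenced. No value in the table is 0, and a gene without a read sits at a low value set by its length and its set of libraries, which is called its no-read value here. The median no-read value over genes was 1.6 RPKM. These low values fall into 3 sets of 10, 16 and 16 libraries, which is the number of batches the study names, and no label gives the set. All 16 of the marker genes listed for the 4 nuclei, among them Agrp and Npy for the ARC, Nr5a1 for the VMH, Npvf for the DMH and Oxt and Avp for the PVN, were highest in the nucleus they mark. The study took all 4 nuclei from the same brains, and it counts the libraries of a group as biological replicates. The labels do not say which libraries share a mouse, and p-values measure the spread between libraries. All fits treat libraries as independent, so the SE and p of any fasting difference averaged over nuclei may be too small. In dissected tissue, fewer cells of a type and less RNA per cell cannot be told apart.

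The respiratory chain passes electrons from NADH and succinate to oxygen across the inner mitochondrial membrane and stores the energy as a proton gradient that ATP synthase uses. Complex I (NADH dehydrogenase, the Nduf genes) and complex II (succinate dehydrogenase, the Sdh genes) feed ubiquinone, complex III (the Uqcr genes) passes electrons on to cytochrome c (Cycs), and complex IV (cytochrome c oxidase, the Cox genes) reduces oxygen. Neurons rely on this pathway for most of their ATP, and several complex IV subunits come in alternative isoforms that are typical of muscle, testis or lung. The 77 genes comprised 7 core subunits, 29 accessory subunits and 8 assembly factors of complex I, 4 subunits of complex II, 3 core and 5 accessory subunits of complex III, Cycs, 10 subunits of complex IV and 7 of its alternative isoforms. The remaining 3 were Ndufa4 and its relative Ndufa4l2, which were first counted to complex I and are now placed with complex IV, and Cox7a2l, described as a factor of supercomplexes of complexes III and IV. Supercomplexes were not measured, so the RNA level of Cox7a2l does not show whether they form in these mice.

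Most of the genes were well expressed in every nucleus. Of the 77, 69 lay above their no-read value in all 42 libraries and 65 had a mean of at least 10 RPKM. Of the groups of subunits and assembly factors, leaving aside Cox7a2l and the pair of Ndufa4 and Ndufa4l2, complex IV subunits had the highest median over their genes, 122 RPKM, against 55.6 for accessory and 32.2 for core subunits of complex I, 44.5 for complex II, 45.2 and 63.2 for core and accessory subunits of complex III, and 12.8 for complex I assembly factors. The highest median levels over the 42 libraries were those of Ndufa4 at 334 RPKM (212 to 417) and Cox8a, a small membrane subunit of complex IV, at 326 RPKM (239 to 552). Subunits of the same complex differed widely. In complex II the flavoprotein Sdha, which oxidizes succinate, had a median of 158 RPKM (121 to 201), while its partner Sdhb, the iron-sulfur protein, had 26.8 RPKM and the membrane anchors Sdhc and Sdhd had 26.0 and 62.2 RPKM.

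Within complex I the ends of the range were Ndufb9, an accessory subunit, at 201 RPKM and Ndufab1, the mitochondrial acyl carrier protein, at 7.96 RPKM. Among core subunits, which carry the redox centers, Ndufs3 was lowest at 20.8 RPKM. Assembly factors, which are not part of the finished complex, ran from Ndufaf2 at 36.0 RPKM to Ndufaf6 at 6.13 RPKM. Of the exon bases of Ndufaf2, 65.6% overlap the lincRNA B230220B15Rik, so its reads and those of that gene cannot be told apart there. In complex III the core protein Uqcrc2 had 59.1 RPKM and the Rieske iron-sulfur protein Uqcrfs1 had 37.4 RPKM, and the accessory subunits lay between Uqcrq at 31.0 RPKM and Uqcr10 at 129 RPKM. Cycs, the mobile electron carrier, had 11.4 RPKM (7.36 to 13.9), and 26.1% of its 50-base stretches occur in other annotated genes, which may share its reads. Levels across genes went down with annotated exon length, with a Spearman correlation of −0.50 over the 69 genes above their no-read value in all libraries. These genes share libraries, and their exon length had a median of 1550 bases (419 to 8086). Ndufab1, with 6883 bases, is among the long ones. The part of length in the range among subunits was not tested, and the length used to form RPKM may differ from the annotated one.

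**Figure D1:**
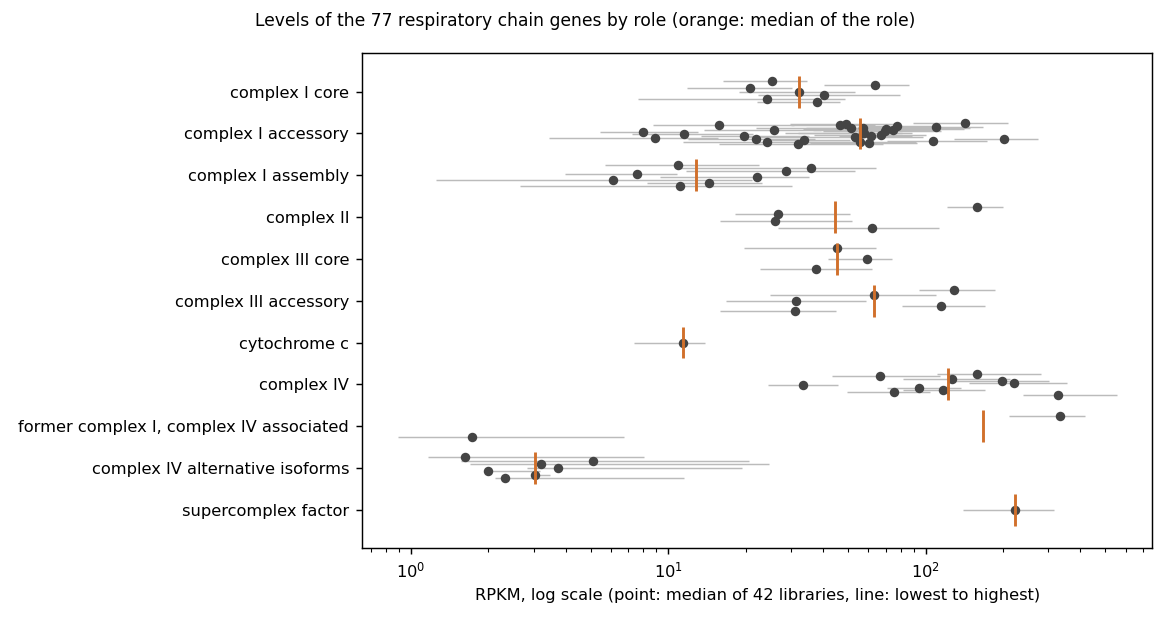
Level of each of the 77 genes by its role, in RPKM on a log scale, where points are medians over the 42 libraries, gray lines run from the lowest to the highest library and orange bars mark the median of each role. Complex IV subunits had a median of 122 RPKM and the alternative isoforms of complex IV 3.04 RPKM.

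For every pair of complex IV isoforms the form common to most tissues was far above the alternative form. Cox4i1 had a median of 158 RPKM, whereas Cox4i2, typical of lung, had 1.62 RPKM and was at its no-read value in 20 of 42 libraries. Cox7a2 had 94.5 RPKM and the muscle isoform Cox7a1 3.74 RPKM, at its no-read value in 17 libraries. Cox6b1 had 222 RPKM and the testis isoform Cox6b2 3.19 RPKM, at no-read in 10 libraries. Cox8a had 326 RPKM, and the muscle isoform Cox8b at 3.04 RPKM and the testis isoform Cox8c at 2.33 RPKM were at no-read in 40 and 38 libraries, so that neither could be told from zero reads at this depth in most of them. The same held for Cox7b2 (2.0 RPKM, 35 libraries) beside Cox7b at 117 RPKM, and Ndufa4l2 was at 1.73 RPKM with 12 libraries at no-read beside Ndufa4 at 334 RPKM. Cox6a2, the heart and skeletal muscle isoform of Cox6a1, was the alternative isoform with the highest median, 5.08 RPKM against 198 RPKM for Cox6a1.

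Levels of the well-expressed genes stayed within 2-fold across the 8 groups. For the 65 genes with a mean of at least 10 RPKM, the mean of the highest of the 8 groups over that of the lowest had a median of 1.35-fold and ran from 1.13-fold (Cox6c, a complex IV subunit) to 1.89-fold (Ndufv1, the NADH-binding core subunit of complex I). None of the 65 exceeded 2-fold, while 917 of 5383 protein-coding genes at that level did, which is 17.0%, with a median of 1.51-fold. These folds are descriptions without a test. The coefficient of variation within a group, averaged over groups, had a median of 18.9% among the 69 genes above no-read and was lowest for Sdha at 9.48% and highest for Ndufaf6 at 47.5%.

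The summed RPKM of the 77 genes lay between 4203 and 5690 per library, or 1.19 to 1.58% of the RPKM of all annotated identifiers. Group means were 4856 ± 280 (SD, n = 5) in fed and 4682 ± 382 (SD, n = 5) in fasted ARC, and 4903 ± 494 (SD, n = 6) in fed and 4995 ± 366 (SD, n = 6) in fasted VMH. They were 4718 ± 527 (SD, n = 5) in fed and 4926 ± 344 (SD, n = 4) in fasted DMH, and 5216 ± 383 (SD, n = 6) in fed and 5042 ± 409 (SD, n = 5) in fasted PVN. Fed and fasted libraries overlapped in all 4 nuclei, and the difference between state means was smaller than the SD of either group in each nucleus.

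**Figure D2:**
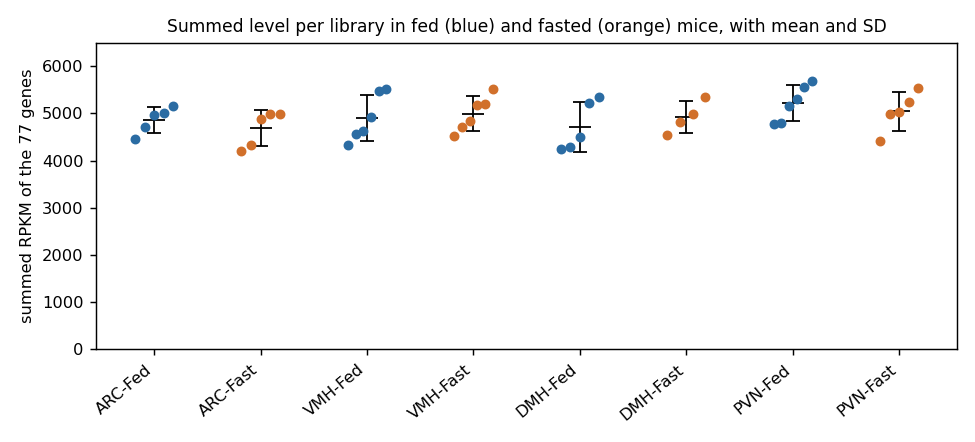
Summed RPKM of the 77 genes in each library by group, with fed libraries in blue, fasted libraries in orange, and the group mean with its SD in black. All 42 libraries lie between 4203 and 5690, and fed and fasted points overlap in every nucleus.

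The regions upstream of these genes were searched for the letters of 6 known motifs in the window from 250 bases before to 50 bases after the start, on both strands, using RefSeq promoters of GRCm38.p6, which held 62 of the 77 genes in 64 windows. Nuclear respiratory factor 1 (NRF1) is a transcription factor named for its sites in respiratory chain genes, and its letters GCGCA, any base, then GCGC occurred for 13 of the 62 genes, or 21.0%, against 5.19% of all 27011 genes in the table. The letters CCGGAAG, bound by ETS factors such as GABP (also called NRF2), occurred for 13 genes or 21.0% against 9.93%, and AAGATGGCG, bound by YY1, for 6 genes or 9.68% against 1.64%. The letters TGACGTCA of CREB sites occurred for 5 genes or 8.06% against 2.03%, and TCAAGGTCA, bound by estrogen-related receptors, for 1 gene (Sdhd) or 1.61% against 0.467%. TATAAA was found for 6 genes or 9.68%, against 15.7% of all genes. The 27011 genes were not limited to protein-coding or expressed genes, as the 62 are by rule protein-coding, and shares among matched genes were not counted. These contrasts are therefore not shown to be particular to the respiratory chain. Sdhd and Cox6a1 held both the NRF1 and the ETS letters, and 26 of the 62 genes held none of the 6 motifs. The 13 genes with the NRF1 letters were Sdha and Sdhd of complex II, Uqcrc1 of complex III, Cox6a1 of complex IV, the assembly factors Ndufaf4 and Ndufaf5, and 7 accessory subunits of complex I (Ndufa5, Ndufa6, Ndufa8, Ndufa11, Ndufb4, Ndufs5 and Ndufs6). A match of letters is a description and not a binding site shown to be used, and the promoters of further genes, such as Cox4i1, Cox4i2, Cox6a2, Cox6c, Cox8c, Ndufa2, Ndufa4l2, Ndufaf6, Ndufb9, Ndufs1, Sdhc, Uqcrb, Uqcrc2 and Uqcrq were not analysed here.

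The stretches that follow are shown because their genes carry results in the comparisons, each 5′ to 3′ on the strand of the gene, with the NRF1 letters in capitals. They lie at chr4:24897945-24898004 (plus strand) for Ndufaf4, at chr5:115349041-115349100 (minus strand) for Cox6a1 and at chr16:37654525-37654584 (minus strand) for Ndufb4, all in GRCm38.p6.
Ndufaf4: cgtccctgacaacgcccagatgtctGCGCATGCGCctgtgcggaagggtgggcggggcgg
Cox6a1: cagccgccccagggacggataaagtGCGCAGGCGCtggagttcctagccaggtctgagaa
Ndufb4: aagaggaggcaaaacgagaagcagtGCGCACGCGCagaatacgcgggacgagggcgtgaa
Of the 15 genes called in a test across nuclei or for fasting averaged over nuclei, 13 were in the promoter table, and 5 of these held the NRF1 letters (Ndufaf4, Ndufaf5, Ndufb4, Cox6a1 and Uqcrc1).

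The first comparison asks how 24 hours without food altered these genes in each nucleus. No member passed the test in any nucleus, by limma on log2(RPKM + 1) at a Benjamini-Hochberg adjusted p under 0.1 over all 33579 genes tested, where 0.0566, 0.131, 0.0238 and 0.0715% of all genes passed for ARC, VMH, DMH and PVN in turn. Of the 33579, 24005 were above their no-read value in at least 4 libraries, so shares of all genes here and below include genes without detected reads. At an unadjusted p under 0.05, 8 ARC members differed (7.5% of all genes), all 8 of them lower in fasted mice (3.27% of all genes were lower and 4.23% higher). VMH members numbered 10 (7.31% of all genes), 5 higher (3.75%) and 5 lower (3.56%). DMH members numbered 4 (6.48%), 2 higher (3.99%) and 2 lower (2.48%), and PVN members also 4 (5.53%), 1 higher (3%) and 3 lower (2.53%). Among protein-coding genes with a mean of at least 10 RPKM, 9.49, 12.1, 4.44 and 9.2% reached this level for ARC, VMH, DMH and PVN in turn. Of these protein-coding genes 6.06, 8.6, 1.75 and 6% were lower and 3.44, 3.55, 2.69 and 3.2% higher in fasted mice, so that lower values also prevailed among them in all nuclei but the DMH. The median log2 difference of the members, in the same order, was −0.05, 0.00, 0.06 and −0.03, beside −0.03, −0.05, 0.01 and −0.03 for those protein-coding genes. Fasted means were below fed means for 49 members and above for 26 (ARC), for 37 and 40 (VMH), for 31 and 46 (DMH), and for 47 and 30 (PVN).

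**Figure D3:**
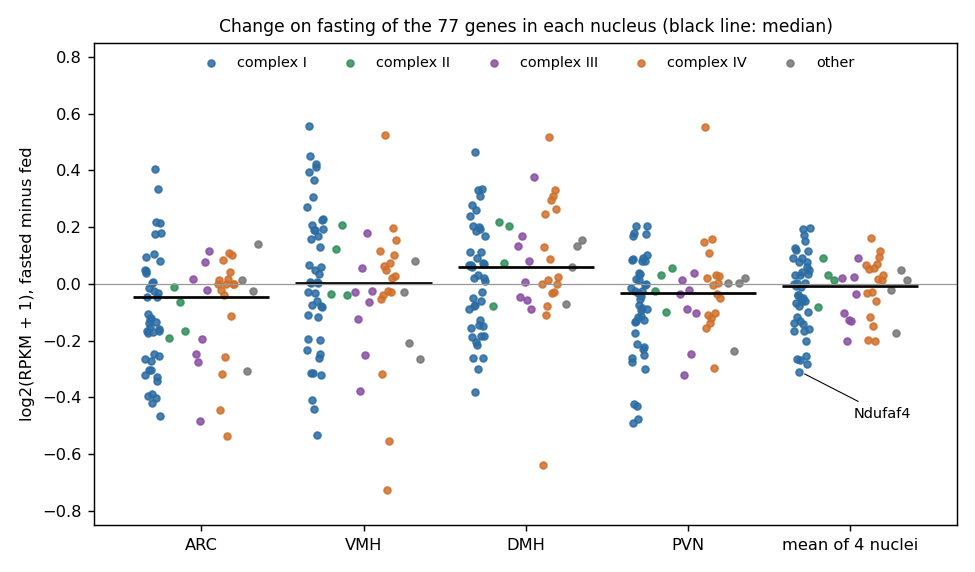
Difference between fasted and fed mice in log2(RPKM + 1) for each of the 77 genes in each nucleus and averaged over the 4 nuclei, colored by complex, with the median as a black line. The medians were −0.05 (ARC), 0.00 (VMH), 0.06 (DMH) and −0.03 (PVN), and only Ndufaf4 passed the test, in the average.

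In the ARC the values below fed levels were spread over the complexes. All 8 complex I assembly factors (median −0.21) and all 4 subunits of complex II (median −0.12) had lower means in fasted mice, while the 29 accessory subunits of complex I split 12 higher and 17 lower with a median of −0.05. The member with the lowest p was Cox5a, a nuclear-encoded subunit that sits next to the catalytic core of complex IV. Its levels in fed ARC were 78.3, 83.6, 61.3, 64.5 and 63.7 RPKM. In fasted ARC they were 48.8, 51.1, 43.3, 59.6 and 53.5 RPKM. Every fasted library was below every fed one, with a difference of −0.44 ± 0.15 (SE) on the log2 scale that did not pass over all genes (limma, unadjusted p = 0.0045, adjusted p = 0.46). The exact permutation test of this gene over the 10 libraries gave p = 0.00794 (two-sided), the smallest that 5 against 5 libraries allow. Cox6a1 was the only other member without overlap in the ARC, at 196, 222, 184, 185 and 205 RPKM in fed and 136, 149, 182, 156 and 176 RPKM in fasted libraries (difference −0.32 ± 0.16 SE, adjusted p = 0.68 by limma). Against these 2 of 77 members, 0.742% of all genes and 1.91% of protein-coding genes with a mean of at least 10 RPKM were free of overlap between states in the ARC.

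Cox6a1 was not among the 8 ARC members at an unadjusted p under 0.05. Beside Cox5a these were Uqcrc1, a core protein of complex III (−0.48 ± 0.20 SE), the accessory subunit Ndufb8 (−0.40 ± 0.17), the assembly factor Ndufaf7 (−0.39 ± 0.16), Ndufs1 (−0.34 ± 0.14), Cycs (−0.31 ± 0.13), Ndufb5 (−0.25 ± 0.12) and Sdha (−0.19 ± 0.09), with adjusted p between 0.65 and 0.66 by limma. Cycs was at 13.5, 13.3, 8.06, 12.1 and 11.4 RPKM in fed and 8.54, 8.84, 9.42, 11 and 7.95 RPKM in fasted ARC. The lowest fed library lay among the fasted ones for this gene, and the rest were above them. The members furthest above their fed levels in the ARC were the accessory subunits Ndufb7 (0.40), Ndufs4 (0.33) and Ndufb9 (0.22), each at an unadjusted p above 0.05. Neuron markers were also lower in fasted ARC, 9 of the 10 listed with a median of −0.22, and their summed level was 706 to 770 RPKM in fed and 616 to 718 RPKM in fasted libraries. Its part in the values of the respiratory chain genes was not tested.

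In the VMH, Cox5a again had the lowest p among members below fed levels, at 79.2 to 103 RPKM (median 85.7, n = 6) in fed and 47.7 to 89.8 RPKM (median 71.7, n = 6) in fasted libraries. Of the fasted libraries 5 were below the lowest fed one, and the difference of −0.32 ± 0.13 (SE) had an adjusted p of 0.55 by limma. Uqcrc2 (−0.25 ± 0.12) and Uqcrb (−0.38 ± 0.18), both of complex III, followed. Among members above fed levels, Ndufb4 was at 13.4 to 23.5 RPKM (median 19.3) in fed and 21.9 to 29.3 RPKM (median 24.1) in fasted VMH, with the ranges overlapping and a difference of 0.42 ± 0.15 (SE) at an adjusted p of 0.43 by limma. Ndufaf7, an assembly factor with methyltransferase activity, was at 8.25 to 13.7 RPKM (median 10.5) in fed and 11.9 to 17.4 RPKM (median 14.3) in fasted VMH, a difference of 0.36 ± 0.14. In the ARC the same gene differed by −0.39, and of all members it had the lowest p in the test of whether the fasting difference varied between nuclei (unadjusted p = 0.0085, adjusted p = 1 by limma). No member passed that interaction test, which 0.00596% of all genes passed, and 3 members had an unadjusted p under 0.05 (Ndufaf7, Cox4i2 and Ndufa3) against 4.39% of all genes. Fed and fasted libraries overlapped in the VMH for every member, and did not for 0.277% of all genes.

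In the DMH, 3 members did not overlap between states, against 1.15% of all genes and 2.47% of protein-coding genes with a mean of at least 10 RPKM. Cox7b, a small complex IV subunit, was at 114, 116, 101, 87.7 and 107 RPKM in fed and 135, 139, 120 and 126 RPKM in fasted libraries, all of the latter above the former (0.31 ± 0.14 SE, adjusted p = 0.72 by limma). Ndufaf3, an assembly factor of complex I named after its values were seen, was at 22.6 to 30.6 RPKM in the 5 fed and 30.7 to 40.9 RPKM in the 4 fasted libraries, where the highest fed and the lowest fasted library are almost equal (0.46 ± 0.29 SE, adjusted p = 0.97 by limma). Cox4i2, the lung-type isoform, was at 2.66, 3.06, 3.96, 3.69 and 3.84 RPKM in fed and 2.37, 1.53, 1.79 and 1.71 RPKM in fasted DMH, close to its no-read value of 1.53 RPKM, where 1 fasted library was (−0.64 ± 0.28 SE, adjusted p = 0.71 by limma). The complex III subunit Uqcrq was the remaining member above fed levels at an unadjusted p under 0.05 (0.38 ± 0.18).

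In the PVN the member with the lowest p was the assembly factor Ndufaf4, followed by Ndufaf5, which hydroxylates a core subunit of complex I (−0.47 ± 0.20), and Cox7a2 (−0.30 ± 0.14), all at unadjusted p under 0.05 and adjusted p of 0.69 or more by limma. Cox4i2 was at 8.03 and 6.64 RPKM in 2 of 5 fasted libraries, above the 1.41 to 3.44 RPKM of fed PVN, and at 1.53 to 2.13 RPKM in the others (0.55 ± 0.25). No member was free of overlap between fed and fasted PVN, against 0.402% of all genes.

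Averaged over the 4 nuclei, 1 of the 77 members fell with fasting, Ndufaf4, where 0.5% of all genes and 1.99% of protein-coding genes with a mean of at least 10 RPKM passed the same test. Ndufaf4 encodes an assembly factor needed early in the building of complex I, and lies at chr4:24898083-24905001 on the plus strand of GRCm38, behind the promoter stretch printed above. In the ARC it was at 5.31, 8.08, 9.42, 9.35 and 6.97 RPKM in fed and 7.46, 7.61, 6.30, 6.65 and 6.95 RPKM in fasted mice. In the VMH fed libraries were at 6.85 to 10.8 RPKM (median 8.94) and fasted libraries at 5.39 to 9.98 RPKM (median 6.27). The fed values reach higher in both nuclei, and the states overlap in each. In the DMH Ndufaf4 was at 7.92, 8.22, 6.79, 9.96 and 8.88 RPKM in fed and 5.61, 7.30, 6.03 and 5.72 RPKM in fasted mice. In the PVN fed libraries were at 7.70 to 10.6 RPKM (median 10.2) and fasted libraries at 3.98, 8.53, 10.3, 6.95 and 5.70 RPKM. Here 1 fasted library lay among the fed ones in the DMH and 2 in the PVN.

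For ARC, VMH, DMH and PVN in turn, the difference of Ndufaf4 was −0.12, −0.31, −0.38 and −0.43 on the log2(RPKM + 1) scale, which understates the change of genes this low, and its average was −0.31 ± 0.08 (SE; limma, adjusted p = 0.083). Exact two-sided permutation tests within a nucleus gave p = 0.405, 0.0584, 0.0238 and 0.0606 in that order. The average counts the libraries of all nuclei as independent although the nuclei share brains, so its SE and p may be too small. The call is close to its threshold, since it was lost without any of 25 of the 42 libraries taken singly (adjusted p 0.104 to 0.141) and with the set of libraries (0.103) or log2 depth (0.146) as a covariate. Within the sets of libraries, fasted libraries were lower in 8 of 11 comparisons of a nucleus in a set.

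The next member, Ndufs1, is the largest core subunit of complex I and carries iron-sulfur clusters. In the ARC it was at 19.2, 27.9, 27.7, 25.8 and 25.4 RPKM in fed and 27.6, 18.3, 18.5, 18.3 and 16.3 RPKM in fasted mice. In each state 1 library stood with the other state, and the rest were apart. In the VMH it was at 19.0 to 34.7 RPKM (median 30.6) in fed and 18.9 to 28.3 RPKM (median 24.6) in fasted libraries, and in the PVN at 25 to 30.2 RPKM (median 26.5) and 19.3 to 27.4 RPKM (median 22.2). In the DMH it was at 22.2 to 29.1 RPKM (median 23.0) and 19.1 to 24.3 RPKM (median 21.4). The states overlap in every nucleus, with the fasted median the lower. The averaged difference of −0.25 ± 0.07 (SE) did not pass (limma, adjusted p = 0.119), although it passed when only genes with at least 10 RPKM in 4 libraries were tested (0.0538), under array weights (0.0247), with the depth covariate (0.0826) and over genes above their no-read value (0.0833). It also passed without ARC-Fast 1 (0.0383), ARC-Fed 1 (0.0586), PVN-Fast 1 (0.0839), VMH-Fast 4 (0.0902) or VMH-Fed 1 (0.026).

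**Figure D4:**
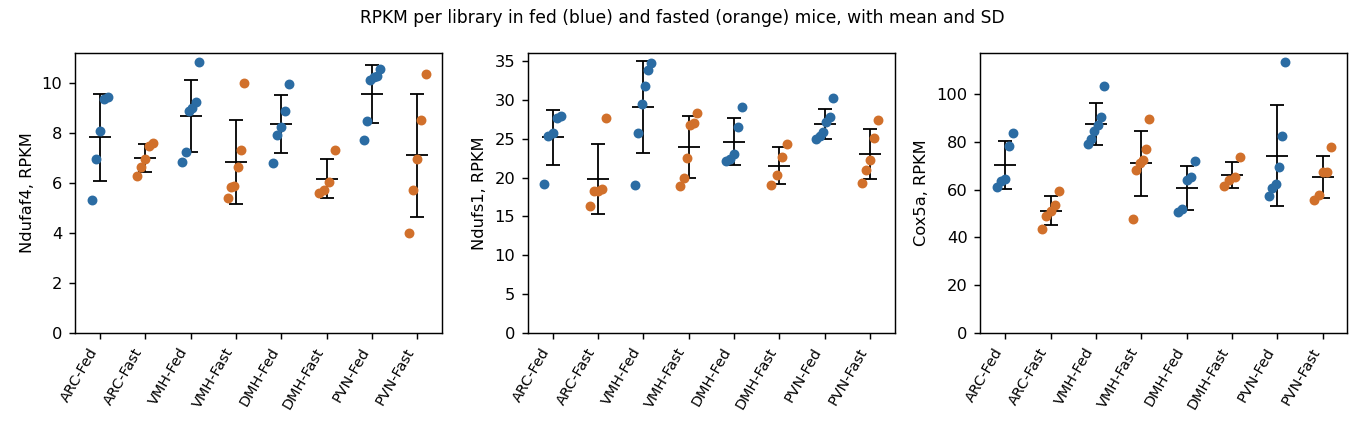
RPKM of Ndufaf4, Ndufs1 and Cox5a in each library by group, with fed libraries in blue, fasted libraries in orange, and the group mean with its SD in black. For Ndufaf4 the fasted mean is below the fed mean in all 4 nuclei, with overlapping libraries, and for Cox5a the 2 states are apart in the ARC (43.3 to 59.6 against 61.3 to 83.6 RPKM).

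At an unadjusted p under 0.05 the average reached 15.6% of protein-coding genes with a mean of at least 10 RPKM, 10.9% lower and 4.76% higher in fasted mice. It gave 12 members at this level against 7.14% of all genes, with 10 lower and 2 higher, against 3.28% and 3.86% of all genes. The lower ones beside Ndufaf4 and Ndufs1 included Cox5a (−0.20 ± 0.07 SE), Cycs (−0.17 ± 0.07), further subunits of complex I or III with values from −0.28 to −0.14 (Ndufs5, Ndufa9, Ndufb5 and Uqcrb) and Uqcrc2 (−0.13 ± 0.06). The higher ones were the accessory subunits Ndufb4 (0.19 ± 0.08) and Ndufb9 (0.15 ± 0.07). Ndufv3, an accessory subunit of the NADH-binding arm, had 0.20 at an unadjusted p above 0.05. Among the cell type markers, the average of the 4 nuclei was lower in fasted mice for 7 of 10 neuron markers (median −0.10), 5 of 8 astrocyte markers (median −0.06) and 8 of 8 microglia markers (median −0.12). Of these only Aqp4, a water channel of astrocytes, passed, and it fell by 0.59 on the log2 scale (limma, adjusted p = 0.0013). The part of the cell types in the values of the members was not tested. Fasted means were below fed means in all 4 nuclei for 11 members (among them Ndufa9, Ndufaf4, Ndufaf6, Ndufb5, Ndufb8, Ndufs1, Ndufs5, Ndufs6, Sdha and Uqcrc2) and above in all 4 for 4 (Cox8a, Ndufb7, Ndufb11 and Ndufv3). How many of all genes kept the same direction in all 4 nuclei was not counted, and the nuclei share brains. These counts are therefore descriptions and not a result about the members.

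The second comparison asks whether the nuclei differ in these genes. In fed mice, 9 of the 77 members differed between nuclei (limma F test, adjusted p under 0.1), or 11.7%, where 12.4% of all genes did. Of the 65 members with a mean of at least 10 RPKM, 8 passed, against 37.2% of protein-coding genes at that level. In fasted mice, whose libraries are separate from the fed ones, 8 members passed, or 10.4%, where 11.9% of all genes did, with 7 of the 65 against 34.8%. Cox6a2, Cox7a2l and Ndufb9 passed in both states, which is 33.3% of the 9 and 37.5% of the 8. How many of all genes passed in both states was not counted, so these shares are descriptions and not a result about the members. The fasted calls of Ndufb9, Ndufb4 and Uqcrh were lost with the set of libraries as a covariate, with the replicate block, with only the groups compared and without PVN-Fast 4, among other libraries. The 6 that passed in fed mice alone were Ndufb2, Ndufaf7, Ndufaf5, Ndufb11, Cox7b and Cox5a, and the 5 in fasted mice alone were Uqcrc1, Cox6a1, Ndufv1, Ndufb4 and Uqcrh, of which Uqcrc1, Ndufv1 and Uqcrh are named after their values were seen. No member passed the interaction test above, so a difference of these patterns between states is not shown.

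Cox6a2 had the largest differences between nuclei. The gene lies at chr7:128205435-128206387 on the minus strand of GRCm38, and 10.3% of its exon bases overlap Itgad. In fed mice it was at 15.1, 9.59, 3.71, 15.7 and 8.72 RPKM in the ARC and 18.8, 8.21, 8.14, 8.30 and 11.3 RPKM in the DMH, against 1.63 to 10.3 RPKM (median 2.97, n = 6) in the VMH and 1.57 to 3.09 RPKM (median 1.72, n = 6) in the PVN. In the PVN 4 of the 6 fed libraries were at the no-read value, and all fed ARC and DMH libraries were above every fed PVN library. In fasted mice the VMH and PVN were again below the ARC and DMH, with 20.7, 9.04, 12.7, 8.13 and 5.36 RPKM in the ARC, 9.97, 9.30, 6.96 and 14.1 RPKM in the DMH, 2.97 to 12.5 RPKM (median 4.65) in the VMH, and 1.57, 3.17, 2.99, 1.80 and 1.80 RPKM in the PVN, where 3 of 5 libraries were at no-read.

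On the log2(RPKM + 1) scale Cox6a2 in fed mice was 1.83 ± 0.34 (SE) higher in the ARC than in the PVN (limma, adjusted p = 0.00048) and 1.94 ± 0.34 higher in the DMH than in the PVN (adjusted p = 0.0003). It was also 1.30 ± 0.34 higher in the ARC and 1.41 ± 0.34 higher in the DMH than in the VMH (adjusted p = 0.012 and 0.0088). In fasted mice the ARC and DMH were above the PVN by 1.80 ± 0.35 and 1.75 ± 0.38 (adjusted p = 0.0011 and 0.0049), and the VMH was above the PVN by 0.94 ± 0.34 (adjusted p = 0.096). The difference between ARC and DMH did not pass in either state. In each of the 3 sets of libraries Cox6a2 was lowest in the PVN. The DMH was highest in each set with the ARC close to it, but in the set of 10 libraries DMH-Fed 1 was the only DMH library. Over all libraries Cox6a2 had a higher mean in the ARC than in the DMH, so no order of ARC and DMH is shown. Its widely expressed counterpart Cox6a1 ran otherwise, at 184 to 222 RPKM in fed ARC and 167 to 294 RPKM (median 258) in fed VMH, and in fasted mice at 136 to 182 RPKM in the ARC and 186 to 302 RPKM (median 252) in the VMH, where all VMH libraries were above all ARC libraries (−0.63 ± 0.15 SE for ARC minus VMH, limma, adjusted p = 0.0056).

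Cox7a2l was lowest in the VMH in both states. The gene lies at chr17:83501918-83517330 on the minus strand, and 13.8% of its 50-base stretches occur in other annotated transcripts, so that its reads may be shared with them. In fed VMH it was at 145 to 171 RPKM (median 159, n = 6) and in fasted VMH at 139 to 185 RPKM (median 151, n = 6). The ARC had 272, 251, 310, 257 and 225 RPKM in fed and 210, 289, 260, 312 and 263 RPKM in fasted mice. The PVN had 210 to 315 RPKM (median 256) in fed and 307, 227, 228, 275 and 271 RPKM in fasted mice. No ARC or PVN library of either state reached down to a VMH library, while the DMH, at 292, 222, 218, 164 and 161 RPKM in fed and 189, 179, 178 and 247 RPKM in fasted mice, overlapped it. The ARC was above the VMH by 0.71 ± 0.12 (SE) in fed and 0.76 ± 0.12 in fasted mice (limma, adjusted p = 8.3e-05 and 3.0e-05), and the PVN was above the VMH by 0.70 ± 0.12 and 0.74 ± 0.12 (adjusted p = 4.7e-05 and 5.0e-05). The DMH was above the VMH by 0.37 ± 0.12 in fed mice (adjusted p = 0.089). Cox7a2l was lowest in the VMH in each of the 3 sets of libraries.

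**Figure D5:**
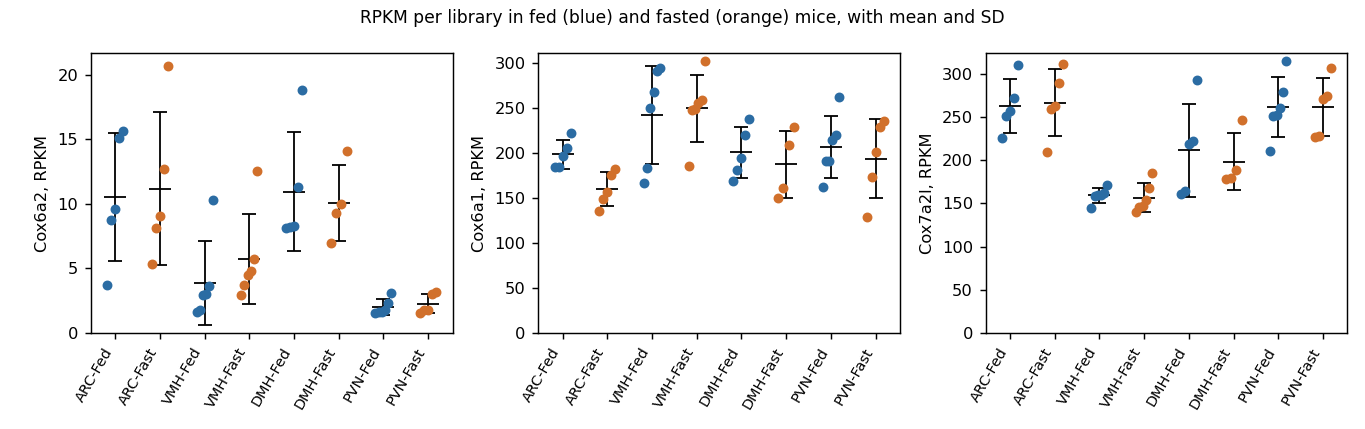
RPKM of Cox6a2, Cox6a1 and Cox7a2l in each library by group, with fed libraries in blue, fasted libraries in orange, and the group mean with its SD in black. Cox6a2 is low in the PVN in both states (1.57 to 3.17 RPKM), and Cox7a2l is low in the VMH (139 to 185 RPKM).

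The accessory subunits that differed between nuclei did so in opposite directions. Ndufb9 was higher in the VMH, at 184 to 257 RPKM (median 219) in fed and 221 to 269 RPKM (median 243) in fasted mice, than in the ARC, at 132, 158, 160, 151 and 159 RPKM in fed and 158, 137, 248, 165 and 193 RPKM in fasted mice, with a difference for ARC minus VMH of −0.52 ± 0.14 (SE) and −0.47 ± 0.14 (limma, adjusted p = 0.016 and 0.030). All fed VMH libraries were above all fed ARC libraries, while 1 fasted ARC library reached into the VMH range. Of the exon bases of Ndufb9, 19.5% overlap the annotated gene Gm49356. Ndufb2 was lowest in fed VMH, at 7.52 to 9.88 RPKM (median 8.35), and highest in fed DMH, at 21.4, 15.6, 15, 12.3 and 12.7 RPKM, a difference of −0.76 ± 0.15 (adjusted p = 0.00073) without overlap. In fasted mice its F test did not pass. Ndufb11 was at 38.3 to 51.9 RPKM in fed VMH and 61.2 to 80.3 RPKM in fed PVN, also without overlap (−0.61 ± 0.16, adjusted p = 0.010). In fasted mice the same pair gave −0.58 ± 0.17 (adjusted p = 0.026), although the F test over the 4 nuclei did not pass (0.119).

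Among the assembly factors Ndufaf7 was higher in fed ARC, at 18.7, 19.1, 19.9, 14.9 and 19.1 RPKM, than in fed VMH, at 8.25 to 13.7 RPKM (0.69 ± 0.15 SE, limma, adjusted p = 0.0018), and Ndufaf5 was higher in fed PVN, at 23.7 to 35.2 RPKM, than in fed VMH, at 9.29 to 23.2 RPKM (VMH minus PVN −0.75 ± 0.19, adjusted p = 0.0094). Fed libraries of the pairs named did not overlap for either gene. Of complex IV, Cox5a was higher in fed VMH than in fed DMH, at 79.2 to 103 against 50.5 to 72.0 RPKM (0.53 ± 0.14, adjusted p = 0.021), and Cox7b was lower in fed ARC, at 81.7 to 112 RPKM, than in fed VMH, at 109 to 140 RPKM (−0.37 ± 0.12, adjusted p = 0.068). The F test calls of 4 of these genes rest on few libraries, and were lost for Ndufaf5 without VMH-Fed 2 or 4 (adjusted p 0.109 to 0.159), for Ndufb11 without PVN-Fed 3 or 6 or VMH-Fed 2, 5 or 6 (0.105 to 0.131), for Cox7b without ARC-Fed 2 or 5 (0.106 to 0.145) and for Cox5a without DMH-Fed 3 or 5 or VMH-Fed 1 or 3 (0.112 to 0.152), by limma. The next members, Ndufv2, Ndufa3 and Uqcrb, did not pass the F test in fed mice (adjusted p between 0.17 and 0.191). In fasted mice Uqcrc1 and Ndufv1 were lower in the ARC than in the VMH, with ARC minus VMH at −0.81 ± 0.19 SE (limma, adjusted p = 0.0039) and −0.83 ± 0.22 (adjusted p = 0.012). Uqcrc1 was at 26.5, 36.7, 19.7, 28.2 and 40.6 RPKM in fasted ARC and 33.2 to 64.4 RPKM (median 57.2) in fasted VMH.

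Counted by pairs of nuclei in fed mice, 6 members differed between ARC and VMH (7.9% of all genes), 0 between ARC and DMH (2.79%), 2 between ARC and PVN (4.13%), 5 between VMH and DMH (5.24%), 6 between VMH and PVN (9.84%) and 1 between DMH and PVN (3.42%). In fasted mice the counts in the same order were 7 (8.91%), 0 (3.21%), 2 (4.19%), 0 (3.94%), 4 (9.24%) and 1 (3%). Among protein-coding genes with a mean of at least 10 RPKM, larger shares passed. In the same order these were 26, 8.53, 11.8, 16.5, 30.1 and 10.2% in fed mice. They were 28.7, 9.94, 11.8, 12.3, 27.4 and 8.51% in fasted mice. Where no member passed by limma, an unadjusted p under 0.05 was reached by 6 members between ARC and DMH in fed mice (11.9% of all genes), by 11 in fasted mice (11.9%), and by 4 between VMH and DMH in fasted mice (12.1%). The shares of those protein-coding genes were 23.1, 23.5 and 25.7% in the same order. Most called pairs include the VMH, which is also the nucleus with the highest summed level of the 10 neuron markers listed, at a mean of 1617 RPKM in fed mice against 740 in the ARC, 899 in the DMH and 1053 in the PVN, and of the astrocyte markers (563 against 416, 515 and 434 RPKM) and oligodendrocyte markers (292 against 128, 183 and 128 RPKM). The neuron list includes Gad1 and Slc17a6, which mark GABA and glutamate neurons and not neurons in general. The fed VMH astrocyte sum includes VMH-Fed 1 at 728 RPKM, and in fasted mice the sum was 484 to 582 RPKM in the VMH and 522 to 606 RPKM in the DMH. Not every list was highest in the VMH. In fed mice endothelial markers were at 68.2 to 95.5 RPKM in the PVN and 29.3 to 72.7 RPKM in the VMH. Microglia markers were at 87.7 to 141 RPKM in fed ARC and 70.2 to 134 RPKM in fed VMH. The part of cell makeup in the differences between nuclei was not tested.

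Other mitochondrial genes were read from lists beside the symbol rule. For scale, fasting within a nucleus gave 0.0238 to 0.131% of all genes past the threshold by limma, and 5.53 to 7.5% at an unadjusted p under 0.05. For fasting within a nucleus, none of the 18 genes of ATP synthase, the 18 of the tricarboxylic acid cycle and pyruvate dehydrogenase, the 27 further subunits and assembly factors of complexes III and IV, the 12 further assembly factors of complexes I and II or the 15 of mitochondrial biogenesis passed by limma, with 0 to 4 genes of a list at an unadjusted p under 0.05 in a nucleus, and 1 of the 11 of uncoupling and fuel switching did. This was Ucp2, an uncoupling protein of the inner membrane, at 14.2 to 22.5 RPKM (median 18, n = 6) in fed and 23.7 to 32.9 RPKM (median 30.5, n = 5) in fasted PVN. All fasted libraries were above all fed ones, and Ucp2 rose by 0.66 ± 0.14 (SE; limma, adjusted p = 0.071). It was lost as a call without PVN-Fast 1, 2 or 3 or PVN-Fed 4, 5 or 6 (adjusted p 0.14 to 0.239), and when only the groups compared were fitted (0.584). The difference was 0.53 ± 0.13 in the VMH (adjusted p = 0.163), 0.20 in the DMH and −0.00 in the ARC, and the average over nuclei was 0.35 ± 0.07 (adjusted p = 0.017).

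Cs, citrate synthase, which opens the tricarboxylic acid cycle and whose activity is often used as a measure of mitochondrial content, was the only other gene of these lists to pass, in the average over nuclei, where it fell by 0.32 ± 0.08 (SE) on the log2 scale (limma, adjusted p = 0.051). Its means were 61.7 ± 10.1 RPKM (SD, n = 5) in fed and 45.7 ± 8.36 (SD, n = 5) in fasted ARC, and 102 ± 25.9 (SD, n = 6) in fed and 76.5 ± 13.4 (SD, n = 6) in fasted VMH. They were 73.3 ± 7.06 (SD, n = 5) in fed and 66.8 ± 4.22 (SD, n = 4) in fasted DMH, and 74.8 ± 15.5 (SD, n = 6) in fed and 58.6 ± 9.86 (SD, n = 5) in fasted PVN. The fasted mean was lower in every nucleus, and the libraries of the states overlapped in each. For ATP synthase the lowest p of the average was that of Atp5b, the catalytic beta subunit, at −0.16 ± 0.05 (adjusted p = 0.18), and for mitochondrial biogenesis that of Nrf1, which encodes the factor whose letters were searched above, at −0.36 ± 0.11 (adjusted p = 0.217). Between nuclei in fed mice 8 of the 18 tricarboxylic acid cycle genes, 2 of the 18 ATP synthase genes, 7 of the 27 further genes of complexes III and IV, 0 of the 12 further assembly factors (2 at an unadjusted p under 0.05 by limma), 2 of the 15 biogenesis genes and 4 of the 11 uncoupling and fuel switch genes passed the F test, beside 9 of the 77 respiratory chain members. In that F test 12.4% of all genes and 37.2% of protein-coding genes with a mean of at least 10 RPKM passed, and 18.8% of all genes had an unadjusted p under 0.05. The respiratory chain subunits encoded in the mitochondrial genome were not analysed here.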

How the data were processed

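The deposited table holds RPKM values per gene and library, which the authors made from reads of amplified RNA; the submitters' processing notes name CASAVA 1.7, TopHat2 2.0.11, Cufflinks 2.2.1, edgeR and limma. As read from the values, the authors added a small count to each gene (5 reads on average, 1.46 to 14.5) and removed the mean of 3 sets of libraries. Nearly all values came out as whole reads within 0.1 read (98.3 to 99.2% per library), which gave the depths. The assignment to sets was inferred from the values. Because set means were removed, part of any difference between sets is already gone from the values.

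Genes with at least 1 RPKM in at least 4 of the 42 libraries (33579) were fitted with limma 3.58.1 in R 4.3.3 on log2(RPKM + 1), with 8 group means, a mean-variance trend and Benjamini-Hochberg adjustment over all genes tested, at an adjusted p under 0.1. The median no-read value of 1.6 RPKM is above this filter, so genes without reads can pass it. Fasting was tested within each nucleus, averaged over nuclei and as an interaction, and nuclei by F tests and pairs within a state. Exact permutation tests over libraries were two-sided. On simulated ARC data with 33579 genes, 19.64% of genes changed by 0.5 on the log2 scale were recovered, 72.06% of those changed by 1 and 92.11% of those changed by 2, with 17 false among 147 calls.

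Gene classes, positions and lengths came from the GENCODE M21 annotation of GRCm38, which matched 35965 of the 37907 identifiers. The members and lists were chosen with earlier results of these data known. Genes named are those past the threshold for fasting, the lowest p in each nucleus, in the average and in the interaction, the 12 lowest in the F test of fed nuclei, the highest and lowest of each role, the isoform pairs, the Sdh genes and Cycs, together with the called gene and lowest p of the other lists. Members named outside this rule, such as Ndufaf3, Ndufb8, Ndufv1, Uqcrc1 and Uqcrh, were chosen after their values were seen. Same-numbered libraries from different nuclei did not deviate together, but neither did differently numbered ones, although the nuclei share brains. Whether the numbers mark a mouse therefore cannot be told, and the main fits did not use them to pair libraries. Alternatives covered the pseudocount, filter, scaling, weights, covariates, samples fitted, threshold and each library left out. Values of some members are not reported here.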

Additional observations from a re-analysis of the deposited data

Results flagged for a closer look

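In 13 of 152 combinations of a named member and a group, 1 library stood apart from the others by Dixon's test, where chance would give about 7.6, and the 13 fell in 11 libraries. Cox6a2 was at 12.5 RPKM in VMH-Fast 5, against 2.97 to 5.73 in the other libraries of that group, and at 10.3 RPKM in VMH-Fed 3, against 1.63 to 3.63. Cox7a2l was at 247 RPKM in DMH-Fast 4, against 178 to 189. For Ndufs1, ARC-Fast 1 was at 27.6 RPKM against 16.3 to 18.5, and ARC-Fed 1 at 19.2 RPKM against 25.4 to 27.9, each in the range of the other state. For Ndufaf7, ARC-Fast 1 was at 23.1 RPKM against 10.9 to 13.6, and ARC-Fed 4 at 14.9 RPKM against 18.7 to 19.9. Ndufb2 was at 8.15 RPKM in ARC-Fast 3, against 11.6 to 12.4. Ndufb4 was at 27.4 RPKM in PVN-Fast 5, against 16 to 17.3, and Ndufs7 in the same library at 44.1 RPKM, against 32.2 to 35.1. Uqcrc1 was at 51.9 RPKM in DMH-Fast 1, against 35.7 to 37.0, and Uqcrh at 171 RPKM in DMH-Fed 2, against 103 to 115. Cox8b was at 3.43 RPKM in PVN-Fast 4, against 2.99 to 3.04, where most libraries had no read.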

How the results depend on the processing

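The counts of members called for fasting within a nucleus and in the interaction were 0 under every alternative and every library left out, by limma. For fasting averaged over nuclei, the count of 1 became 2 (Ndufaf4 and Ndufs1) with a filter of 10 RPKM, with array weights and over the 24005 genes above no-read, and 0 with libraries shifted to an equal median over protein-coding genes, with the set as a covariate, with that covariate and nothing added before the log2, and at an adjusted p under 0.05. With the depth covariate it stayed 1 but the gene was Ndufs1. With 1 library left out it ran from 0 to 2, with 2 without ARC-Fast 1, ARC-Fed 1 or VMH-Fed 1. Ndufaf4 lost its call without ARC-Fast 3 or 4, ARC-Fed 2, 3 or 4, VMH-Fast 3, 4 or 5, VMH-Fed 2, 3, 5 or 6, DMH-Fast 1, 3 or 4, DMH-Fed 2, 4 or 5, PVN-Fast 1, 4 or 5, or PVN-Fed 1, 2, 3 or 6, and its log2 difference was −0.35 to −0.27 over all libraries left out. Between nuclei in fasted mice the count of 8 became 5 with the set covariate, alone or with nothing added, with the replicate block, with only the groups compared and at an adjusted p under 0.05, and ran from 5 (without PVN-Fast 4) to 9 with 1 library left out. The set covariate and the replicate block kept Cox6a1, Cox6a2, Cox7a2l, Ndufv1 and Uqcrc1, and only the groups compared also lost Ndufv1. Uqcrc1 lost its call without ARC-Fast 3, Ndufv1 without ARC-Fast 1, Ndufb9 without ARC-Fast 1, 2 or 4, PVN-Fast 2, 3 or 4 or VMH-Fast 1, 2, 3, 4 or 6, Ndufb4 without ARC-Fast 1, 2 or 4, DMH-Fast 2, PVN-Fast 1, 2, 3 or 4 or VMH-Fast 2, 5 or 6, and Uqcrh without ARC-Fast 5, DMH-Fast 2, VMH-Fast 1, 3, 4 or 5 or any PVN-Fast library. In fed mice the count of 9 was 6 to 10 under alternatives and 8 to 10 with 1 library left out. Of the 9, Cox5a lost its call under quantile normalization (adjusted p = 0.106), the replicate block (0.161) and only the groups compared (0.144), Cox7b under the replicate block (0.169), Ndufaf5 under array weights (0.178) and Ndufb11 under the depth covariate (0.140). Ndufv2 gained a call with the filter of 10 RPKM (0.0948), quantile normalization (0.0991), the equal protein-coding median (0.0818) and without ARC-Fed 3 (0.0338), Ndufa3 without PVN-Fed 4 (0.0817) or VMH-Fed 3 (0.0619), and Uqcrb with only the groups compared (0.096) and without VMH-Fed 6 (0.0923). By pairs in fed mice, ARC against DMH became 1 (Ndufv2) with the filter of 10 RPKM, quantile normalization or the equal protein-coding median, and 0 to 1 with 1 library left out (1 without ARC-Fed 3 or DMH-Fed 1). ARC against PVN became 4 with array weights and 1 with the set covariate, alone or with nothing added, the replicate block, only the groups compared and an adjusted p under 0.05, with 1 to 3 over libraries left out (1 without ARC-Fed 1, 2, 4 or 5 or PVN-Fed 1, 3 or 6). VMH against DMH became 3 with array weights, the replicate block, only the groups compared and an adjusted p under 0.05, with 3 to 5 over libraries left out (3 without DMH-Fed 1, 2 or 3 or VMH-Fed 2, 3 or 5). DMH against PVN became 2 with array weights or only the groups compared, with 1 to 2 over libraries left out (2 without DMH-Fed 1). The median difference of the members for fasting in the ARC became −0.11 with the filter of 10 RPKM, and ran from −0.11 to −0.017 over libraries left out (furthest without ARC-Fast 4 or 5 or ARC-Fed 1), and in the VMH it became 0.058 at an equal protein-coding median. Over libraries left out the median ran from −0.036 to 0.036 in the VMH, from 0.015 to 0.088 in the DMH and from −0.065 to 0.0039 in the PVN, so that its sign is not fixed in the VMH and PVN. No direction of a called result reversed, and the cause of these shifts was not tested. The block on replicate numbers left Ndufaf4 as the 1 member called in the average. Of same-numbered pairs from different nuclei in the same state, 0 of 58 correlated over 0.1, and of differently numbered pairs 0 of 272 did. Since the nuclei share brains, this check does not pick out shared mice and cannot tell whether the numbers pair libraries. Cs lost its call under array weights (0.124), and Ucp2 in the PVN with only the groups compared (0.584) and with the set covariate and nothing added (0.101). Shallow libraries limit low genes most, and for members at no-read in most libraries no difference was detectable at this depth. The alternatives over genes above no-read and at an equal protein-coding median were chosen after seeing the data.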
